A study of Mus musculus with 12 samples.

Results

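The genes described here are those of the tuberoinfundibular dopamine neurons of the hypothalamic arcuate nucleus (ARC), and they were chosen by symbol from the table of expression values: Th, Ddc, Gch1, Slc18a2, Slc6a3, Prlr and Drd2. All 7 were found, each once, among the 38283 genes of the table, and all 7 were among the 14017 genes tested. The rule uses symbols and no expression value, although the choice was made with earlier results of these data known.

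Tuberoinfundibular dopamine neurons sit in the dorsomedial ARC and release dopamine into the portal blood of the median eminence, where it holds back prolactin secretion from the pituitary. Prolactin returns to the hypothalamus and acts on these neurons through its receptor, which raises dopamine output and closes a short feedback loop. The neurons make dopamine from tyrosine with tyrosine hydroxylase and aromatic amino acid decarboxylase, need tetrahydrobiopterin as the cofactor of the hydroxylase, and load the product into vesicles with the vesicular monoamine transporter.

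RNA sequencing was made on the ARC of 5 wild-type (WT) libraries and 7 libraries from mice homozygous for R299Q AMPK (Homo), a point mutation in Prkag2 that changes the γ2 regulatory subunit of AMP-activated protein kinase. The mice of both groups were C57BL/6 males of 8 weeks, fed ad libitum, and the mutation was knocked into the gene itself, so that it is not limited to the ARC or to any cell type. The ARC was cut by laser capture from 14 µm cryosections, and its RNA was amplified before sequencing. The labels do not say that the libraries came from separate litters, and p-values measure the spread between these libraries only.

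Between 15742 and 18635 genes were above 0 in a library. By this number the libraries fell apart into a set of 7 with fewer genes (WT 1 and 2 and Homo 1 to 5) and a set of 5 with more genes (WT 3 to 5 and Homo 6 and 7), with none between 16467 and 18141. Each main difference is therefore also given within these sets. Values were fragments per kilobase, scaled to the fragments mapped in the library (FPKM). By the steps between low values, a fragment per kilobase was worth about 0.0831 to 0.307 FPKM, depending on the library. WT 3 stood apart from the other WT libraries: it held the lowest value of all 12 libraries for 4 of the 7 genes, Th, Ddc, Slc6a3 and Drd2. It was the lowest WT library for 6 of the 7, and main differences are also given without it. WT 3 was not low in these genes alone. Its upper quartile over all genes tested, 14.982 FPKM, was the lowest of the WT libraries (the others 16.248 to 19.536), though Homo 3 had 14.809 FPKM. The share of all genes that were lowest in WT 3 was not counted. Prkag2, the altered gene, lay between 7.73 and 22.5 FPKM in WT and between 8.61 and 24.0 FPKM in Homo (limma log2 difference 0.034, adjusted p = 0.993). A point mutation need not change this level, so it does not check the labels.

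The sequences just upstream of the synthesis, vesicle and reuptake genes are shown because the levels of these 4 genes are compared with each other in what follows. Each is 110 bases before and 20 bases after a RefSeq transcript start (mouse build GRCm38.p6), read 5′ to 3′ on the strand of the gene. Capitals mark a full cyclic AMP response element (CRE, TGACGTCA) or the binding letters of NR4A orphan receptors (NBRE, AAAGGTCA, which reads TGACCTTT on the other strand). These were the only motifs searched, on both strands, and they do not overlap in these windows.
Th, chr7:142899976-142900105, minus strand: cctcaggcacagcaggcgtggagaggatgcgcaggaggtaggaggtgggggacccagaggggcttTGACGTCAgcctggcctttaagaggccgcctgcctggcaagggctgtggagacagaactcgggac
Ddc, chr11:11898125-11898254, minus strand: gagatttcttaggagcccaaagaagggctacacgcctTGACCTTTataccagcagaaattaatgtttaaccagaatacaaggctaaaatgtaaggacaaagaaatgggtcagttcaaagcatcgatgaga
Slc18a2, chr19:59260768-59260897, plus strand: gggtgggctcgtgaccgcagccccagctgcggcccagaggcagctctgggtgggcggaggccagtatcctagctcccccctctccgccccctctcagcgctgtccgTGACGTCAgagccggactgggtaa
Slc6a3, chr13:73536637-73536766, plus strand: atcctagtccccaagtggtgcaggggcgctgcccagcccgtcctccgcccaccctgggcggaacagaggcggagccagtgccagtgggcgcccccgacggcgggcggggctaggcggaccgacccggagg

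The 7 genes had 10 RefSeq windows of 300 bases between them. The CRE letters were in the window of Th, from base -45 relative to its start, and in that of Slc18a2, from base -4, whereas 588 of 32851 windows of the genome (1.79%) held them. The NBRE letters were in a Ddc window only, from base -73, and in 495 of all windows (1.51%). The Ddc sequence lies at the more upstream of its 2 RefSeq starts. The Slc6a3, Gch1, Prlr and Drd2 windows held neither run of letters. A match is a description of the letters and not of binding.

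Over all 12 libraries Th had the highest mean of the 7 genes and Gch1 the lowest, whereas in WT alone Prlr, at 31.3 FPKM, was above Th, at 28.0 FPKM. On the FPKM scale, which is per length, the means over all 12 libraries were 33.0 for Th, 29.8 for Prlr, 24.0 for Ddc, 8.78 for Slc18a2, 5.78 for Slc6a3, 5.63 for Drd2 and 3.37 for Gch1. The step between Ddc and Slc18a2 was seen in every library, 12 of 12. Th was above Prlr in 9 of 12 libraries and Prlr above Ddc in 8 of 12, so these neighbours were not separated in each library. Slc6a3 was above Drd2 in 6 of 12, and their mean log2 difference was -0.025 with a standard deviation (SD) of 0.76. Slc18a2 was above Slc6a3 in 9 of 12 libraries and Drd2 above Gch1 in 9 of 12. Spread over the 12 libraries was smallest for Th and Prlr, with a coefficient of variation of 26.8% for both, and largest for Slc6a3 at 51.1%.

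No gene of the 7 differed between Homo and WT at an adjusted p under 0.05 by limma, against 0.00713% of all genes tested, which is 1 gene of 14017. The transporter that takes released dopamine back up, Slc6a3, had the largest difference of the 7: its mean in Homo was 2.05 times that in WT. It was the 1 gene of the 7 with an unadjusted p under 0.05, against 5.55% of all genes in either direction (3.05% higher and 2.5% lower in Homo). In Homo, 5 of the 7 genes had the higher mean log2 value, against 49.3% of all genes. The median log2 difference of the 7 was 0.10 and that of all genes tested was -0.0062. In no gene of the 7 did the values of one genotype lie wholly above those of the other, which was so for 0.128% of all genes with Homo above WT. In bulk tissue, fewer cells of a type and less RNA per cell cannot be told apart.

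**Figure D1:**
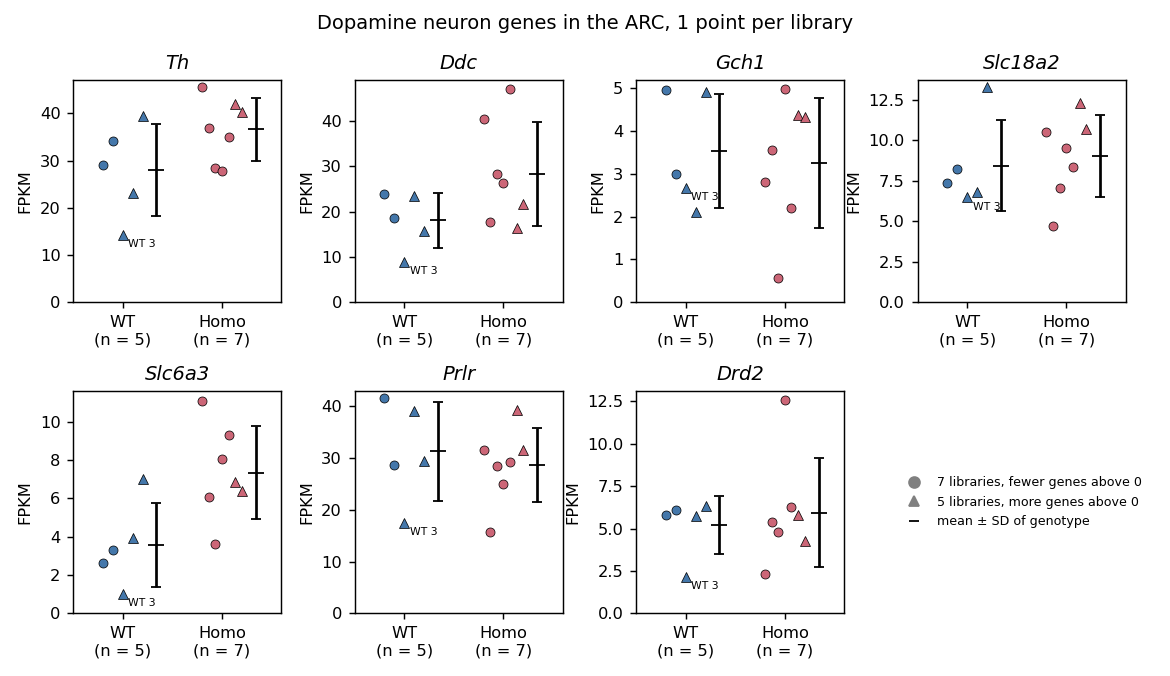
FPKM (vertical axis, from 0) of the 7 dopamine neuron genes in 5 WT and 7 Homo libraries, with a point per library, circles for the 7 libraries with fewer genes above 0, triangles for the 5 with more, and bars for the mean ± SD of each genotype. Slc6a3 averaged 3.58 in WT and 7.35 in Homo with overlapping ranges, and WT 3 is the lowest point for Th, Ddc, Slc6a3 and Drd2.

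Synthesis came first. Th (ENSMUSG00000000214, GRCm38 chr7:142892752-142931128, minus strand) encodes tyrosine hydroxylase, the rate-limiting enzyme of dopamine synthesis. In WT libraries 1 to 5 it was 29.0, 34.1, 14.3, 23.1 and 39.5 FPKM. Homo libraries ranged from 27.8 to 45.5 FPKM with a median of 37.0. All Homo values lay above WT 3 and WT 4, 3 were above the highest WT value, and the groups otherwise overlapped. Means were 28.0 ± 9.77 (SD, n = 5) in WT and 36.6 ± 6.69 (SD, n = 7) in Homo. The log2 difference was 0.43 ± 0.23 (SE), with a 95% interval from -0.073 to 0.93 (limma adjusted p = 0.906, two-sided exact permutation p = 0.0833). Within the 7-library set it was 0.12 and within the 5-library set 0.77. Without WT 3 it fell to 0.22 (exact permutation p = 0.245).

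Ddc (ENSMUSG00000020182, chr11:11814101-11898144, minus strand) encodes the decarboxylase that turns L-DOPA into dopamine. WT libraries 1 to 5 held 23.8, 18.5, 8.95, 23.4 and 15.7 FPKM. The Homo libraries ran from 16.5 to 47.1 FPKM, with a median of 26.3. Of the Homo values 4 were above the highest WT value, and the lowest 3 lay inside the WT range. The means were 18.1 ± 6.11 and 28.3 ± 11.5 FPKM (SD, n = 5 and 7). On the log2 scale they differed by 0.60 ± 0.30 (SE), interval -0.036 to 1.23 (limma adjusted p = 0.899, exact permutation p = 0.0947). It kept its sign within both sets, at 0.51 and 0.32, and was 0.38 without WT 3. An antisense gene that overlaps Ddc, 1700042O10Rik, averaged 0.07 FPKM, and counting by strand is not given in the sources used here.

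Gch1 (ENSMUSG00000037580, chr14:47153895-47189413, minus strand) encodes GTP cyclohydrolase, which opens the synthesis of tetrahydrobiopterin. It was 4.94, 2.99, 2.67, 2.11 and 4.91 FPKM in WT 1 to 5. In Homo it ran from 0.574 to 4.96 FPKM, with a median of 3.54. The ranges overlapped almost wholly, apart from Homo 3, which was the lowest of the 12. The difference was -0.15 on the log2 scale (interval -0.85 to 0.56, limma adjusted p = 0.979) and was of opposite sign in the sets, -0.48 in the 7-library and 0.39 in the 5-library set. Gch1 rested on few fragments, about 14 to 175 per library, and 2 processed pseudogenes overlap it.

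Vesicle loading and reuptake are handled by a pair of transporters. Slc18a2 (ENSMUSG00000025094, chr19:59260896-59296012, plus strand) encodes the vesicular monoamine transporter that all monoamine neurons use. WT 1 to 5 held 7.39, 8.21, 6.51, 6.82 and 13.3 FPKM. Homo ran from 4.72 to 12.3 FPKM with a median of 9.51. The highest library was a WT library, WT 5, and the lowest a Homo library, Homo 2, and the groups overlapped over most of their range. Homo minus WT was 0.082 ± 0.24 (SE) on the log2 scale, interval -0.44 to 0.60 (limma adjusted p = 0.988, exact permutation p = 0.729). It was -0.0031 with fewer genes above 0 and 0.40 with more. The antisense gene Gm29261 overlaps Slc18a2.

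Slc6a3 (ENSMUSG00000021609, chr13:73536747-73578672, plus strand) encodes the dopamine transporter and, unlike Slc18a2, is used by dopamine neurons but not by other monoamine neurons. In WT 1 to 5 it was 2.65, 3.30, 1.03, 3.91 and 7.01 FPKM. In Homo it ran from 3.64 to 11.1 FPKM with a median of 6.86. All 7 Homo values were above the WT median, 3 were above the highest WT value, and WT 5 lay among the Homo libraries. The means were 3.58 ± 2.2 and 7.35 ± 2.42 FPKM (SD, n = 5 and 7). The log2 difference was 0.95 ± 0.32 (SE) with an interval from 0.26 to 1.63. Its limma unadjusted p was 0.0103, and 3.05% of all genes were higher in Homo with an unadjusted p under 0.05. Its limma adjusted p was 0.793, so Slc6a3 did not pass over all genes. A two-sided exact permutation test of this gene alone gave p = 0.0227, where 0.0013 is the smallest p that the splits of 12 libraries can give.

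The Slc6a3 difference had the same sign within both library sets, 1.05 ± 0.42 (SE) with fewer genes above 0 and 0.82 ± 0.57 (SE) with more. These sets hold 2 WT and 5 Homo, and 3 WT and 2 Homo libraries. In the 5-library set WT 5, at 7.01 FPKM, was above both Homo libraries, at 6.86 and 6.37 FPKM, and WT 3 was lowest at 1.03 FPKM. Permuted within the sets only, over 210 arrangements, the exact p was 0.0381. Without WT 3 the difference was 0.69 and its exact permutation p was 0.0576. Leaving out each library in turn gave 0.69 to 1.18. The size depended on the pseudocount, with 0.54 at a pseudocount of 5 and 1.18 at 0.1. Slc6a3 has a single annotated transcript, and its values corresponded to about 40 to 270 fragments per library. A log2 difference at least this large was held by 2.47% of all genes.

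**Figure D2:**
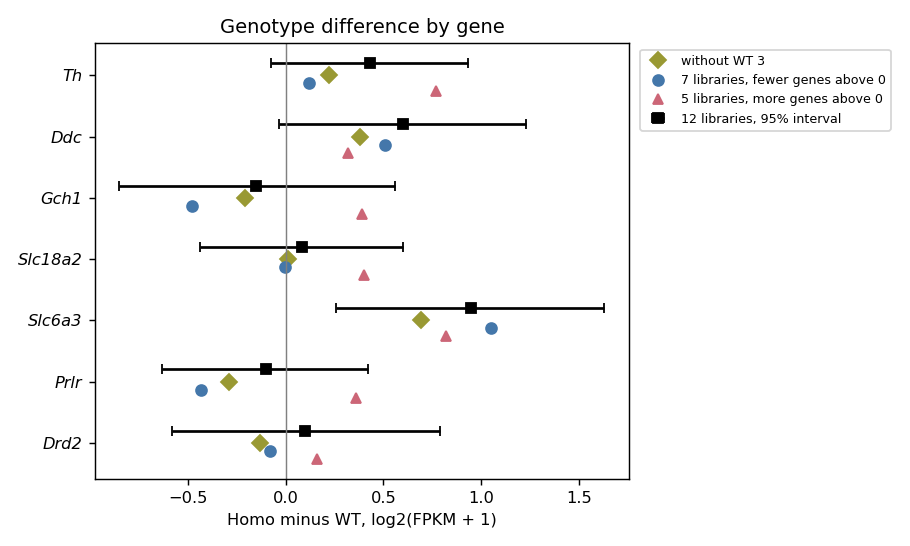
Homo minus WT difference on the log2(FPKM + 1) scale (horizontal axis) for each of the 7 genes, as the limma estimate with its 95% interval over 12 libraries (square), within each library set (circle, triangle) and without WT 3 (diamond). The interval of Slc6a3, 0.26 to 1.63, is the only interval of the 7 that leaves out 0, and the 2 sets lie on opposite sides of 0 for Gch1, Slc18a2, Prlr and Drd2.

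The receptors through which the neurons are regulated did not differ beyond the spread between libraries. Prlr (ENSMUSG00000005268, chr15:10177238-10349180, plus strand) encodes the prolactin receptor. WT 1 to 5 held 41.7, 28.7, 17.5, 39.2 and 29.4 FPKM. Homo ran from 15.8 to 39.3 FPKM with a median of 29.2. No Homo library was above the WT maximum, and only Homo 2 was below the WT minimum. Homo minus WT was -0.10 ± 0.25 (SE) on the log2 scale, interval -0.63 to 0.42 (limma adjusted p = 0.982, exact permutation p = 0.681). The 7-library set gave -0.43 and the 5-library set 0.36. The interaction of genotype and set had a limma adjusted p of 0.886. Prlr has 12 annotated transcripts, and the table does not part the long signalling form from the short forms. A protein-coding gene on the same strand, Gm21973, overlaps Prlr and averaged 0.627 FPKM.

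Drd2 (ENSMUSG00000032259, chr9:49340627-49408177, plus strand) encodes the inhibitory D2-type dopamine receptor, which serves as an autoreceptor on dopamine neurons and is also made by other neurons. It was 5.80, 6.09, 2.16, 5.72 and 6.34 FPKM in WT 1 to 5. In Homo it ran from 2.34 to 12.6 FPKM with a median of 5.37. Only 2 of the 7 Homo values were above the WT median, and the highest, Homo 4, set the Homo mean above that of WT. The log2 difference was 0.10 ± 0.32 (SE), interval -0.58 to 0.79 (limma adjusted p = 0.989), and it was -0.078 without Homo 4 and -0.13 without WT 3. The values corresponded to about 26 to 165 fragments per library.

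The levels of the other genes were then set against Th in the same library, which puts them on a scale relative to the synthesis enzyme. On the log2(FPKM + 1) scale Slc6a3 lay 2.73 ± 0.38 (SD, n = 5) under Th in WT and 2.21 ± 0.39 (SD, n = 7) under Th in Homo. The difference of these ratios was 0.52 (two-sided exact permutation p = 0.0442). It was 0.93 within the 7-library set (exact permutation p = 0.0476, the smallest that set can give) and 0.051 within the 5-library set, where no p under 0.1 is possible. With the library set as a term it was 0.53 (exact permutation p within sets = 0.0619), and without WT 3 it was 0.47 (exact permutation p = 0.0879). In 6 of the 12 cases with a library left out (WT 1, 2 or 3, Homo 1, 4 or 5) the exact permutation p was above 0.05. The lowest and highest WT ratios were -3.04 and -2.30, and those of Homo -2.67 and -1.67, so the groups overlapped. For Slc18a2 the ratio to Th went the other way, by -0.35 (exact permutation p = 0.163), and for Ddc it differed by 0.17 (exact permutation p = 0.63). These 3 ratios share Th and the libraries, and their p-values are not adjusted.

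Across the 12 libraries, Th and Slc6a3 had the highest correlation of the 21 pairs among the 7 genes. Pearson's r was 0.81 (permutation p = 0.00224, adjusted p = 0.047) and Spearman's rho was 0.60 (permutation p = 0.0423, adjusted p = 0.296). Without WT 3 and WT 4, the libraries farthest from the median of Th, r was 0.57 (permutation p = 0.0861), so the relation rested in part on those libraries. Within the 7 libraries with fewer genes above 0, r was 0.58 (exact permutation p = 0.173). Th and Ddc, whose enzymes act in sequence, had r = 0.46 and rho = 0.028, and r was -0.065 without WT 3. These values mix genotype and library. With the means of genotype and library set removed, r of Th and Slc6a3 was 0.86. On that scale Ddc and Prlr also had r = 0.86 (0.39 before removal), and these values were not tested.

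**Figure D3:**
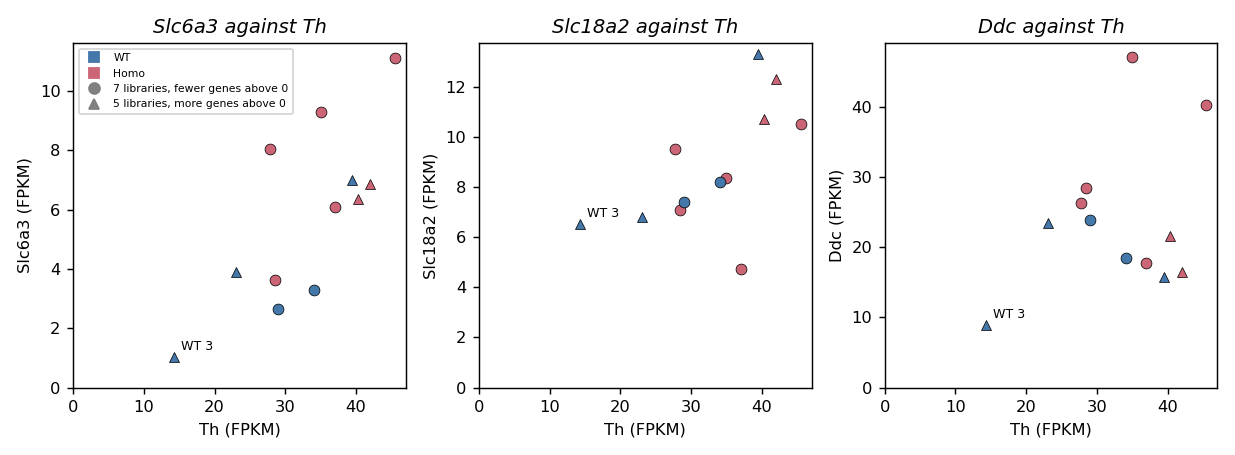
Slc6a3, Slc18a2 and Ddc (vertical axes, FPKM) against Th (horizontal axis, FPKM), with a point per library, blue for the 5 WT and red for the 7 Homo libraries, circles for libraries with fewer genes above 0 and triangles for those with more. WT 3, at 14.3 FPKM of Th, is the lower left point in the Slc6a3 and Ddc panels and the leftmost in the Slc18a2 panel.

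The genes most like Th over the 12 libraries, by Pearson's r of log2(FPKM + 1), were Uqcrfs1, an iron-sulphur subunit of respiratory complex III, at 0.94, Stmn2, a neuronal microtubule regulator, at 0.92, the elongation factor gene Eef1a1 at 0.91, and Ppp2r2b and Tuba4a, both at 0.90. Slc6a3 came at rank 43 of the tested genes by this measure. With the means of genotype and library set removed, the leading 5 genes were others, Atp9a at 0.95, Terf2ip and Ankrd50 at 0.94, Ubox5 at 0.93 and Rbbp6 at 0.92, and Slc6a3 was at rank 48. Genes chosen as the highest of 14017 over 12 libraries are a description, with no test.

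The cofactor of tyrosine hydroxylase gave the other genes of the pathway with an unadjusted p under 0.05. Of the 8 genes of tetrahydrobiopterin synthesis and recycling 7 were tested, and 5 were higher in Homo, against 49.3% of all genes. Of the 7, 2 had an unadjusted p under 0.05 in that direction, against 3.05% of all genes. The median log2 difference of the list was 0.22, and no member passed over all genes (lowest limma adjusted p = 0.763). Values of bulk ARC do not show which cells made these transcripts. Qdpr averaged 34.1 FPKM in WT, against 28.0 FPKM for Th.

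Spr encodes sepiapterin reductase, the last step of tetrahydrobiopterin synthesis. It was 9.14, 6.97, 6.56, 8.14 and 14.7 FPKM in WT 1 to 5, and in Homo it ran from 9.33 to 34.3 FPKM with a median of 18.0. The log2 difference was 0.93 ± 0.29 (SE) (limma adjusted p = 0.763, exact permutation p = 0.0152). The 7-library set gave 1.28 and the 5-library set 0.27, and the ranges of the genotypes overlapped in the latter.

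Qdpr encodes dihydropteridine reductase, which regenerates the cofactor after each round of hydroxylation. WT 1 to 5 held 36.1, 41.6, 23.5, 35.0 and 34.3 FPKM, and Homo ran from 36.8 to 69.2 FPKM with a median of 48.6. Of the 7 Homo values 6 were above the highest WT value. The log2 difference was 0.56 ± 0.19 (SE) (limma adjusted p = 0.783, exact permutation p = 0.0051), 0.45 and 0.44 within the sets, and 0.43 without WT 3 (exact permutation p = 0.0212). Pts, the enzyme between Gch1 and Spr, was 14.8 ± 3.99 and 17.9 ± 9.21 FPKM (SD, n = 5 and 7), a log2 difference of 0.17 (limma adjusted p = 0.961).

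**Figure D4:**
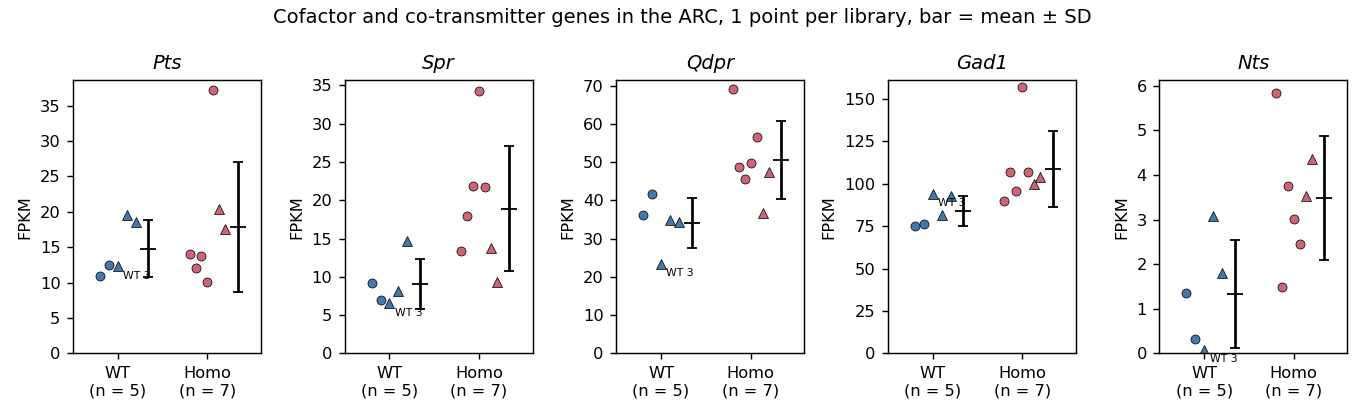
FPKM (vertical axis, from 0) of 3 tetrahydrobiopterin genes (Pts, Spr, Qdpr) and 2 co-transmitter genes (Gad1, Nts) in 5 WT and 7 Homo libraries, with a point per library, circles and triangles for the library sets and bars for mean ± SD. For Qdpr and Gad1, 6 of the 7 Homo points are above the highest WT point, and for Spr and Nts 4 are.

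Arcuate dopamine neurons also make other transmitters. Of 12 genes for co-transmitters and modulators, 10 were higher in Homo, against 49.3% of all genes, with a median log2 difference of 0.33. Of the 12, 2 had an unadjusted p under 0.05 in that direction, against 3.05% of all genes. Gad1, an enzyme that makes GABA, averaged 83.9 ± 8.93 FPKM over the WT and 109.0 ± 22.1 FPKM over the Homo libraries (SD, n = 5 and 7), a log2 difference of 0.35 (limma adjusted p = 0.899, exact permutation p = 0.0101). The Gad1 difference was 0.52 in the 7-library and 0.20 in the 5-library set. Nts, the neurotensin gene, was 1.36, 0.313, 0.0831, 3.08 and 1.80 FPKM in WT 1 to 5 and ran from 1.49 to 5.84 FPKM in Homo, a log2 difference of 1.05 (limma adjusted p = 0.783, exact permutation p = 0.0177). Both genes are used by many hypothalamic neurons without dopamine. Gal, the galanin gene, and Ghrh, the gene of growth hormone-releasing hormone, had log2 differences of 0.36 and 0.44 (limma adjusted p = 0.923 and 0.92).

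Of 8 genes of dopamine breakdown, 5 were higher in Homo, against 49.3% of all genes, with a median of 0.32. None had an unadjusted p under 0.05 by limma, against 5.55% of all genes. Maoa, a monoamine oxidase, was 3.58 ± 0.743 and 4.73 ± 0.808 FPKM (SD, n = 5 and 7), a log2 difference of 0.33 (limma adjusted p = 0.915). Of the 9 tested genes for dopamine receptors and their partners 5 were higher in Homo, against the same 49.3%, with a median of 0.084. Again none had an unadjusted p under 0.05, against 5.55% of all genes.

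Genes of prolactin receptor signalling had a median difference near 0. Of its 10 genes 6 were higher in Homo, against 49.3% of all genes, with a median log2 difference of 0.0022. None had an unadjusted p under 0.05, against 5.55% of all genes. Stat5b, the transcription factor that carries the prolactin signal in these neurons, was 7.01 FPKM in both groups, with a log2 difference of 0.0044 and an interval from -0.45 to 0.46. Its target Cish ranged from 0.681 to 15.0 FPKM over the libraries, and the interval of its difference, -1.27 to 1.43, was correspondingly wide.

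Of the 12 genes for kinases, chaperones and a phosphatase that act on tyrosine hydroxylase 5 were higher in Homo, with a median of -0.058. Of the 11 tested transcription factors of dopamine neurons 6 were higher, with a median of 0.016. The share of all genes higher in Homo was 49.3%. Neither list had a gene with an unadjusted p under 0.05, against 5.55% of all genes. Nr4a2, an orphan receptor gene in the list of transcription factors, ran from 0.494 to 54.7 FPKM over the libraries. The interval of its log2 difference ran from -2.40 to 1.88.

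Marker genes were checked for the kind of neuron and tissue. The 7 midbrain dopamine neuron factors summed to at most 0.75 FPKM in any library, and Pitx3 and Foxa2 were listed at 0 in all 12. Slc6a4, the serotonin transporter gene, was listed at 0 in all 12. Hdc, the gene for histamine synthesis, was above 0 in 11 of the 12 libraries. It averaged 5.97 FPKM in WT and 2.11 FPKM in Homo, from 0 in Homo 1 to 19.7 FPKM in WT 3. The part of histamine neurons in the Slc18a2 values was not tested. Dbh, which turns dopamine into noradrenaline, was 12.3 FPKM in WT 3 and at most 0.801 FPKM elsewhere, so WT 3 differed in this gene too. Of 8 markers of arcuate neurons 7 were higher in Homo, against 49.3% of all genes, with a median log2 difference of 0.42. Their sum was 1298 to 4507 FPKM in WT and 3385 to 5166 FPKM in Homo, and WT 3 was the lowest of the 12 libraries for Agrp (181 FPKM) and Npy (514 FPKM). Of the 8 markers, Agrp and Npy, the peptides of the orexigenic neurons, had an unadjusted p under 0.05 in that direction, against 3.05% of all genes. The log2 difference of Agrp was 0.60 (limma adjusted p = 0.899, exact permutation p = 0.0909), 0.30 with the library set as a term (exact permutation p within sets = 0.0714) and 0.44 without WT 3 (exact permutation p = 0.185). That of Npy was 0.60 (limma adjusted p = 0.887, exact permutation p = 0.0354), 0.41 with the library set as a term (exact permutation p within sets = 0.0857) and 0.38 without WT 3 (exact permutation p = 0.0848). Of 8 general neuron genes 6 were higher, against 49.3% of all genes, with a median log2 difference of 0.042. Their sums were 678 to 958 FPKM in WT and 662 to 1065 FPKM in Homo.

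Genes of neighbouring tissue were present in some libraries. The 9 genes of neighbouring hypothalamic nuclei summed to as much as 1030 FPKM in a WT library and to between 16.2 and 579 FPKM in Homo. The 4 that were tested all had the higher mean log2 value in Homo, against 49.3% of all genes. Their median log2 difference was 0.79 (lowest limma adjusted p = 0.901, for Hcrt). Hcrt was listed at 0 in 8 libraries, and its mean was 0 for WT against 1.81 FPKM for Homo. It passed the filter through its Homo values alone, so its direction (log2 difference 1.10) was set by the filter. Oxt, the oxytocin gene, ran from 1.25 to 646 FPKM over the libraries. Its log2 difference was 0.49, although its FPKM mean was lower for Homo (147 against 158). Avp, the vasopressin gene, had a log2 difference of 2.15 (limma adjusted p = 0.915). The 11 pituitary genes summed to 1.87 to 120.0 FPKM in WT and 1.86 to 60.5 FPKM in Homo, and Gh was 61.5, 64.5 and 54.5 FPKM in WT 3, WT 5 and Homo 7 and at most 0.139 FPKM in the rest. Prl was listed at 0 in 10 libraries and reached 2.73 FPKM in WT 5. The 8 choroid plexus genes summed to 8.58 to 15.4 FPKM in WT and 6.73 to 25.4 FPKM in Homo. Clic6 (means 7.48 in WT and 9.88 in Homo) and Kl (2.57 and 2.5) were the highest of these. No other gene of the list had a genotype mean above 1.66 FPKM, that of Ttr in Homo. Folr1, Aqp1 and Slc4a5 were at most 0.699 FPKM in any library. All 8 microglial and endothelial genes had the higher mean log2 value in Homo, against 49.3% of all genes, with a median of 0.26 and sums of 46.4 to 75.7 and 62.6 to 85.9 FPKM. Their part in the differences of Slc6a3, Spr, Qdpr, Gad1 and Nts was not tested.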

How the data were processed

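The ARC was laser-captured and its RNA amplified (NuGEN RNAseq v2) and sequenced in 12 libraries. The deposited table holds FPKM values per gene, made by the authors. The submitters' processing notes name TopHat2 2.0.8, Cufflinks 2.2.1 and the GRCm38 build. All 12 library columns were matched to the labels and 0 were left unmatched. Depth was approximated from the steps between low values, since the table holds no counts. Genes with a mean of at least 1 FPKM (14017) were tested on log2(FPKM + 1), which understates differences of low genes, with limma 3.58.1 in R 4.3.3, Homo against WT, with Benjamini-Hochberg adjustment over all of them. Values of a single gene were tested by two-sided exact permutation over libraries (Python 3.11.15, scipy 1.17.1). The fit was tested on simulated data. Positions are from GENCODE M21 and sequences from RefSeq. Named were the 7 genes, list genes with an unadjusted p under 0.05, defining genes where a result turned on them, and the 5 genes most like Th. The genes and lists were chosen with earlier results of these data known. Replicate numbers did not pair the libraries (correlations of deviations from -0.05 to 0.03). Alternatives were the filter, pseudocount, scaling, library set and each library left out.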

Additional observations from a re-analysis of the deposited data

Results flagged for a closer look

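In 5 of the 36 groups of values examined (the 7 genes, the list genes with an unadjusted p under 0.05 and the 3 ratios to Th, in WT and in Homo) the highest or lowest library lay far from the others by Dixon's test. Chance gives about 1 in 20. Slc18a2 was 13.3 FPKM in WT 5, the highest WT library. Drd2 was 2.16 FPKM in WT 3, the lowest WT library, and 12.6 FPKM in Homo 4, the highest Homo library. Gad1 was 157 FPKM in Homo 4, and Crym, a gene of tanycytes, was 2.07 FPKM in Homo 1, in both cases the highest Homo library. The causes were not tested.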

How the results depend on the processing

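Of 181 differences of the 7 genes recomputed under alternatives, 168 kept their direction, 13 changed sign and 0 reached an adjusted p under 0.05 by limma (lowest 0.624). Th, Ddc and Slc6a3 kept their direction under every alternative run, and the Slc6a3 difference was 0.54 with a pseudocount of 5. Within the 7-library set the log2 difference was -0.0031 for Slc18a2 and -0.079 for Drd2. Within the 5-library set it was 0.39 for Gch1 and 0.36 for Prlr, and the ratio of Ddc to Th was -0.45. Array weights gave 0.11 for Gch1, and the library set as a term without WT 3 gave -0.14 for Drd2 (an alternative chosen after seeing the data). Leaving out each library gave -0.27 to 0.072 for Gch1 (above 0 without Homo 3), -0.29 to 0.026 for Prlr (above 0 without WT 1 or Homo 2) and -0.13 to 0.26 for Drd2. The ratio of Slc6a3 to Th, with an exact permutation p of 0.0442, was 0.53 with the library set as a term, 0.051 within the 5-library set (where no p under 0.1 is possible) and 0.16 with a pseudocount of 5, none with p under 0.05, and 0.43 to 0.63 with each library left out. Of all genes tested, 1 was called, against 6 and 19 within the sets and 1 to 3 with each library left out (3 without WT 2, 2 without Homo 4).

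The replicate numbers did not pair the libraries, and 0 of 5 matched best with their own number. With the replicate block on replicates 1 to 5, 2 genes were called, Slc18a2 differed by -0.063 and the ratio of Slc6a3 to Th by 0.62 (exact permutation p = 0.0625, the smallest that 5 pairs can give). Without the block the same libraries gave 4 genes and -0.063, an alternative chosen after seeing the data. Gch1 gave no value at a minimum mean of 5 FPKM. The causes were not tested. Fragment numbers were lowest for Gch1, Drd2 and Slc6a3, and what depth adds to the spread between libraries was not tested.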

Other observations

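Among genes of other cells, Crym, a thyroid hormone-binding protein gene of tanycytes, averaged 2.83 ± 2.18 FPKM over the WT and 0.735 ± 0.642 FPKM over the Homo libraries (SD, n = 5 and 7), a log2 difference of -0.98 (limma adjusted p = 0.899, exact permutation p = 0.0379). Crym was lower in Homo within both library sets, by -0.83 and -1.22, and by -1.01 with the library set as a term (exact permutation p within sets = 0.0667). In the 7-library set WT 2 held 5.52 FPKM, whereas WT 1, at 0.475 FPKM, was below Homo 1, at 2.07 FPKM. Of the 7 tested genes of tanycytes and ependymal cells 2 were higher in Homo, against 49.3% of all genes. Crym was the 1 with an unadjusted p under 0.05 by limma, against 5.55% of all genes. C1qa, a complement gene of microglia, was 9.93 ± 3.87 and 18.6 ± 5.33 FPKM (SD, n = 5 and 7), a log2 difference of 0.87 (limma adjusted p = 0.763, exact permutation p = 0.0088), and 5 of the 7 Homo values were above the highest WT value. Hdc, which makes histamine and is a gene of the neighbouring tuberomammillary nucleus, was 19.7 FPKM in WT 3 and at most 6.19 FPKM in the other 11 libraries.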
